A study of Mus musculus with 8 samples.

Results

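The proteasome genes were taken from the mouse expression tables by name. They are the genes whose symbol starts with Psma, Psmb, Psmc, Psmd, Psme, Psmf or Psmg followed by a digit, without the interferon-induced catalytic subunits Psmb8, Psmb9 and Psmb10. This gave 48 of the 18631 genes listed. Expression was measured by RNA-seq of oligo dT-selected RNA in 2 mouse kidney cell lines, one heterozygous for Pkd1 (Pkd1+/-, pkd1(PH)) and one without functional Pkd1 (Pkd1-/-, null(PN)). Pkd1 encodes polycystin-1, and its loss causes cysts in the dominant form of polycystic kidney disease. Each line received the solvent DMSO or 50 nM THZ1, a covalent inhibitor of the transcription kinase CDK7, and each of the 4 groups had 2 libraries. THZ1 was given for 6 h, and no time is given for DMSO. Both lines were grown in DMEM-F12 with 3% fetal bovine serum, penicillin/streptomycin, Insulin-Transferrin-Selenium, nystatin, T3 and interferon gamma, so every group carried the interferon. With 1 line per genotype, an effect of Pkd1 and any other difference between the lines cannot be told apart. The labels do not say whether the 2 libraries of a group are separate cultures, so a p-value here reflects only how far these samples spread, and that spread may be technical.

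The proteasome degrades proteins marked with ubiquitin. Its 20S core is a barrel of alpha rings, which gate the entrance, and beta rings, in which Psmb6, Psmb7 and Psmb5 carry the caspase-like, trypsin-like and chymotrypsin-like sites. The 19S regulatory particle caps the core: a base of Psmc ATPases and large Psmd scaffold subunits unfolds substrates, and a lid that holds Psmd14 removes their ubiquitin. Psmg1 to Psmg4 and Pomp are chaperones that build the core, Psmd5, Psmd9 and Psmd10 are chaperones that build the 19S base, Psme1 to Psme4 are alternative activators, and Psmf1 binds the core and was described as an inhibitor. Cells short of proteasome activity raise the transcription of many subunit genes together through the factor Nfe2l1.

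The values are FPKM as deposited, fragments scaled to the length of the transcript and to the mapped fragments of the library. The low values recur in steps that correspond to 17.3 to 18.3 M fragments per library, which for a transcript of 1000 bases gives a counting error of 7.6% at 10 FPKM and 2.4% at 100 FPKM. Pkd1 itself was at 4.58 and 5.30 FPKM in the heterozygous DMSO libraries, 3.71 and 4.20 with THZ1, 1.69 and 1.32 in the null DMSO libraries and 1.22 and 1.21 with THZ1, lower in the 4 null libraries than in the other 4. Of 11 kidney epithelial markers, 8 had a mean of at least 1 FPKM, among them Krt8, Krt18, Cdh16 and Pax8, but the defining epithelial genes Epcam and Cdh1 lay between 0.05 and 0.42 FPKM in all libraries. Of 11 mesenchymal markers, 4 reached that mean (Col1a1, Postn, Acta2 and Tagln), and the summed level of the list was 42.8 to 43.3 FPKM in the heterozygous line with DMSO, 39.3 to 42.3 with THZ1, 262 to 263 in the null line with DMSO and 303 to 318 with THZ1, whereas Pdgfra, Thy1 and Lum were at or near 0 in every library. The epithelial list summed to 1100 to 1200 FPKM in the heterozygous line with DMSO, 1120 to 1160 with THZ1, 878 to 888 in the null line with DMSO and 799 to 803 with THZ1. The endothelial list summed to at most 0.2 FPKM, and of the leukocyte list only Cd68 reached a mean of 1 FPKM. The part of these marker differences in the differences between lines below was not tested, and in bulk RNA fewer cells of a type and less RNA per cell cannot be told apart. Null DMSO library 1 and null THZ1 library 2 listed more genes at very low values than the other 6. Without them the counts of higher and lower proteasome genes given below were 9 and 27 between the lines with DMSO, 9 and 3 for THZ1 in the heterozygous line, 17 and 11 in the null line, 4 and 15 for the difference of these responses, and 7 and 28 between the lines with THZ1.

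In each comparison a gene was called higher or lower at a Benjamini-Hochberg adjusted p below 0.05 in limma-trend, fitted to log2(FPKM + 1) of the 10731 genes with a mean of at least 1 FPKM. Of the 48 proteasome genes 46 passed that filter. Psma8, the testis form of an alpha subunit, was listed at 0 in all 8 libraries, and Psmb11, the thymus form of the chymotrypsin-like subunit, lay between 0.13 and 0.44 FPKM. Psmc3ip is in the set by its letters only: it is a recombination factor and no proteasome subunit, so it is described apart. Psme2b is a near copy of Psme2, and reads could be split between the pair, so its values are uncertain. Log2 differences below are on the log2(FPKM + 1) scale, with standard errors (SE) from the fit. Where groups are said not to overlap, this only describes the values. With 2 libraries against 2, an exact permutation test cannot give a 2-sided p below 0.333. Genes that were not called can also lack overlap, such as Psmc3 between the lines with DMSO. The share of all genes without overlap is not given here.

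The 31 tested subunits of the core and the 19S particle were expressed within a narrow range. In the heterozygous DMSO libraries they ran from Psmd14, at a mean of 62.0 FPKM, to Psmd2, at 235 FPKM, a 3.80-fold range with a median of 116 FPKM. In the null line the range was wider, 4.37-fold with DMSO (59.2 FPKM for Psmd12 to 259 FPKM for Psmb4) and 5.33-fold with THZ1 (46.4 FPKM for Psmd6 to 247 FPKM for Psmb7). The coefficient of variation among these 31 genes was 37.2% in the heterozygous DMSO group, 37.9% in the heterozygous THZ1 group, 42.3% in the null DMSO group and 47.4% in the null THZ1 group. No test was made of these spreads.

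The order of the core subunits also differed between the lines. Psmb4 was the most abundant core transcript in 3 groups, and in the null line with THZ1 Psmb7, at 251 and 244 FPKM, and Psmb4, at 248 and 227 FPKM, overlapped. Psma3 was the least abundant in 3 groups, and in the null line with THZ1 it changed places with Psma4. Psmb6 was the fourth of the 14 core genes in the heterozygous DMSO group and the tenth in the null DMSO group, where its neighbours Psmb5, at 110 and 116 FPKM, and Psmb6, at 111 and 107 FPKM, overlapped.

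In the heterozygous DMSO libraries the dedicated assembly chaperones were less abundant than the subunits they assemble. Psmg1 to Psmg4 lay between 17.8 and 27.2 FPKM in the heterozygous DMSO libraries, where no tested core subunit was below 77.4 FPKM. Among the 19S base chaperones Psmd5, which binds the ATPase Psmc2, was at 43.7 and 41.5 FPKM there, Psmd9 at 16.6 and 18.4 FPKM and Psmd10 (gankyrin) at 21.9 and 22.6 FPKM. Pomp, the chaperone that matures the core and is not of the Psmg family, was at 165 and 167 FPKM, in the range of the subunits. Psme1 and Psme2, which together form the interferon-induced activator, were at 75.5 and 80.6 FPKM and at 77.9 and 76.1 FPKM, and overlapped each other. In the null line with THZ1 Psmd5 was at 54.4 and 57.4 FPKM. There it lay above the subunits Psmd6, at 44.7 and 48.1 FPKM, and Psmd12, at 51.3 and 53.9 FPKM.

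**Figure D1:**
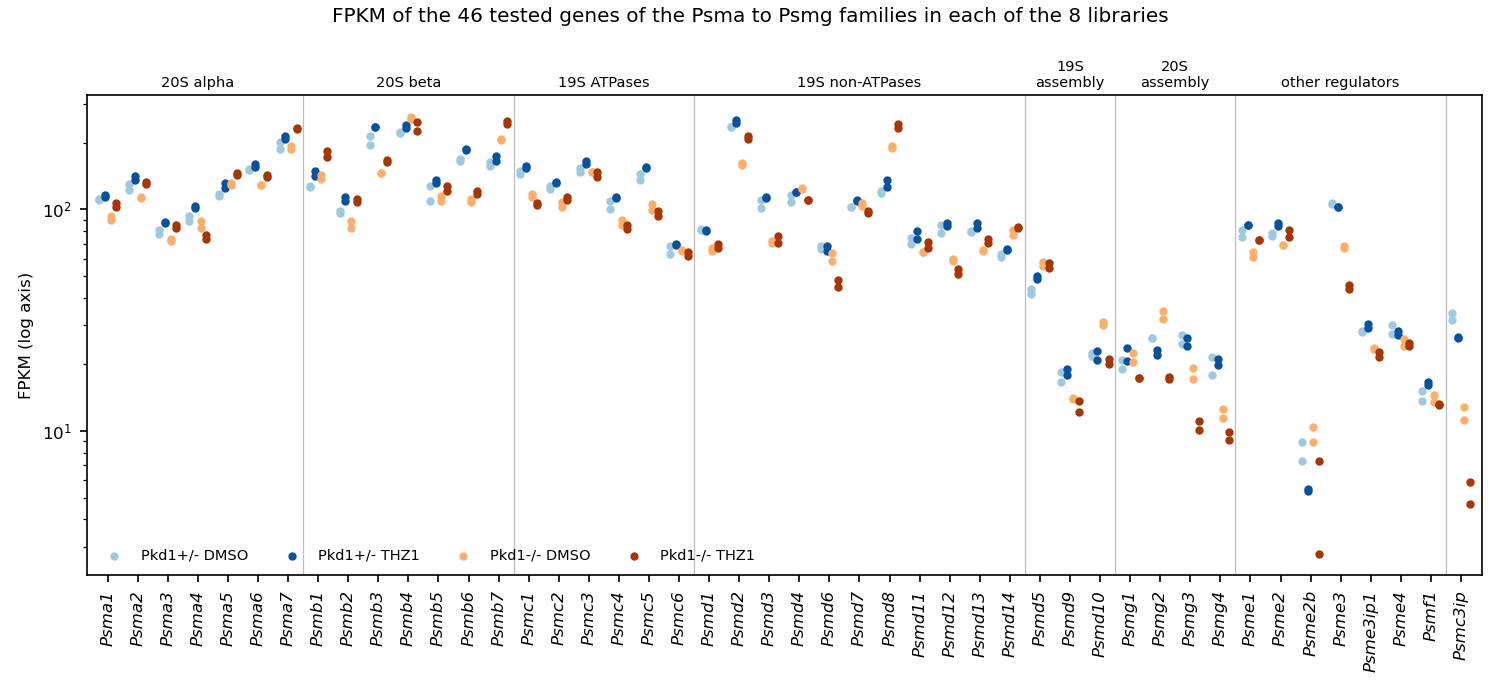
FPKM on a log axis for the 46 tested genes, with 2 points (libraries) for each of the 4 groups of line and drug, ordered by role. The subunits of the core and the 19S particle lie in a band, and the assembly chaperones other than Psmd5 lie below it. In the null line with THZ1 Psmd5 lies above Psmd6 and Psmd12. Psmg3, Psmg4, Psme3 and Psmc3ip are lowest in the null line with THZ1.

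Without the drug, the 2 lines differed in most proteasome genes, and the members of one complex differed in opposite directions. Under DMSO 10 of the 46 genes were higher in the null line and 27 were lower, where 29.0% of all 10731 genes were called higher and 41.0% lower. Their median difference was -0.16, against -0.07 over all genes. Of the 14 core genes 4 were higher and 7 lower, of the 17 genes of the 19S particle 3 were higher and 11 lower, and of the 4 Psmg chaperones 1 was higher and 2 were lower. The 3 base chaperones went 2 up and 1 down.

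Among the catalytic subunits, Psmb6 and Psmb7 parted. Psmb6, the caspase-like site, was at 169 and 165 FPKM in the heterozygous and 111 and 107 FPKM in the null DMSO libraries, a log2 difference of -0.61 (SE 0.04, adjusted p = 3.05e-08). Psmb7, the trypsin-like site, was at 157 and 164 FPKM against 208 and 206 FPKM, a difference of 0.37 (SE 0.04, adjusted p = 5.99e-06). Neither pair of groups overlapped. Psmb5, the chymotrypsin-like site, was at 110 and 127 FPKM against 110 and 116 FPKM, and these groups overlapped (adjusted p = 0.327). The ratio of Psmb7 to Psmb6 within a library, which no scaling between libraries can alter, was 92.7% and 99.5% in the heterozygous and 187% and 191% in the null DMSO libraries. It is made of the same values as the calls of Psmb6 and Psmb7, so it is no separate evidence for them. Psmb3, a beta subunit without a catalytic site, was also lower in the null line, at 146 and 147 FPKM against 195 and 214 FPKM (-0.48, SE 0.04, adjusted p = 7.44e-07).

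The sequence just upstream of the transcription start is shown for Psmb6, Psmb5 and Psmb3 and for Psmg3, because the core and the Psmg genes differ most in the drug response described below. No sequence was available for Psmb7, so it was not searched. The 250 bases before the annotated start come from RefSeq on GRCm38.p6, are written on the strand of the gene, and have in capitals every match to TGACNNNGC, the core of the antioxidant response element to which Nfe2l1 and its relatives bind, and to CCAAT, both searched on either strand. Psmb6 is shown from chr11:70525107-70525356 on the plus strand, Psmb5 from chr14:54617996-54618245 on the minus strand, Psmb3 from chr11:97703184-97703433 on the plus strand and Psmg3 from chr5:139826895-139827144 on the minus strand. The gene coordinates of Psmb6 begin at chr11:70525324, so the last bases of its window, its match among them, lie inside the annotated gene.
Psmb6: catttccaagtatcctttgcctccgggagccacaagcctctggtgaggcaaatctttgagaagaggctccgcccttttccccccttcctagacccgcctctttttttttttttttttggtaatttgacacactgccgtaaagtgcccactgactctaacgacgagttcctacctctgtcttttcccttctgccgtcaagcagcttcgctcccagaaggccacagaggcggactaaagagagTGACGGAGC
Psmb5: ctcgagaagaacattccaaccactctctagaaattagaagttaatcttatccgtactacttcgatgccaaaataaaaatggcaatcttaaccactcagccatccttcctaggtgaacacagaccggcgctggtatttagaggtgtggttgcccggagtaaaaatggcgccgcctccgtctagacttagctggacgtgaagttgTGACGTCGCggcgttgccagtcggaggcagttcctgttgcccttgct
Psmb3: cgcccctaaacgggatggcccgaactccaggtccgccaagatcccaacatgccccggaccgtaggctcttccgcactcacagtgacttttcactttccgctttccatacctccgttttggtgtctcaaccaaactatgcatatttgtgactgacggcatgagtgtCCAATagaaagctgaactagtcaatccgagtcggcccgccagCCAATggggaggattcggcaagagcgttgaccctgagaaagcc
Psmg3: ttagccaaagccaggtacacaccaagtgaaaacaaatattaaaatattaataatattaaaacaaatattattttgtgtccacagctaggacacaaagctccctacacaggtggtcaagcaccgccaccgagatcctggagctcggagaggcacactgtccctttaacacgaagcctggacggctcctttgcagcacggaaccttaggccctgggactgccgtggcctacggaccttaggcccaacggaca
Psmb6 and Psmb5 hold 1 match each to TGACNNNGC, TGACGGAGC and TGACGTCGC, Psmb3 holds CCAAT 2 times, and Psmg3 holds no match to either. Such a match is common. The shares of genes were counted over a longer window, these 250 bases and a stretch after the start. There TGACNNNGC was found in 6 of the 40 proteasome genes with a sequence in the table (15.0%; Psmb5, Psmb6, Psmc6, Psmd9, Psmd12 and Psme4) and in 14.0% of 27025 genes. CCAAT was found in 15 of the 40 (37.5%) and in 41.1% of all genes. Within the core it was in 5 of 7 alpha and 2 of 5 beta subunits. In the 19S particle it was in 2 of 5 ATPases and 2 of 9 non-ATPase subunits. It was in 1 of 3 base chaperones, none of the 3 Psmg genes with a sequence, 2 of 7 other regulators and Psmc3ip. A match is a string of letters in these windows and says nothing of binding.

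In the 19S particle the largest difference between lines was in the lid subunit Psmd8. Psmd8 (chr7:29174187-29180673) was at 118 and 121 FPKM in the heterozygous and 194 and 190 FPKM in the null DMSO libraries, a log2 difference of 0.68 (SE 0.04, adjusted p = 2.21e-08). Psmd14, the deubiquitinase of the lid, was likewise higher in the null line, at 80.9 and 76.9 FPKM against 61.2 and 62.8 FPKM (0.34, SE 0.04, adjusted p = 9.32e-06). The scaffold subunit Psmd2, which binds ubiquitin and shuttle factors, was lower, at 162 and 159 FPKM against 235 and 236 FPKM (-0.55, SE 0.04, adjusted p = 5.54e-08). The groups did not overlap for any of these 3 genes. Of the 6 ATPases 4 were lower in the null line, and the other two, Psmc3 and Psmc6, were not called (adjusted p = 0.429 and 0.942).

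Psmg4 and Psme3 had the most negative differences apart from Psmc3ip. Psmg4, which pairs with Psmg3 in the building of the alpha ring, was at 17.8 and 21.7 FPKM in the heterozygous and 12.6 and 11.4 FPKM in the null DMSO libraries (-0.67, SE 0.08, adjusted p = 1.2e-05). Psme3, the nuclear activator that works without ubiquitin, was at 106 and 107 FPKM against 68.0 and 67.0 FPKM (-0.65, SE 0.04, adjusted p = 1.86e-08). The heterozygous libraries were above the null libraries in both genes. The base chaperones Psmd10, at 30.2 and 31.0 FPKM against 21.9 and 22.6 FPKM, and Psmd5, at 58.2 and 55.7 FPKM against 43.7 and 41.5 FPKM, were higher in the null line by 0.45 (SE 0.06, adjusted p = 1.4e-05) and 0.41 (SE 0.05, adjusted p = 5.76e-06). Psmc3ip, the recombination factor, was at 31.8 and 34.0 FPKM against 11.2 and 12.8 FPKM (-1.38, SE 0.09, adjusted p = 1.63e-08). Of the 37 calls under DMSO, 21 lower and 8 higher held in each of 18 alternative fits, among them each gene given above as called with its library values.

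**Figure D2:**
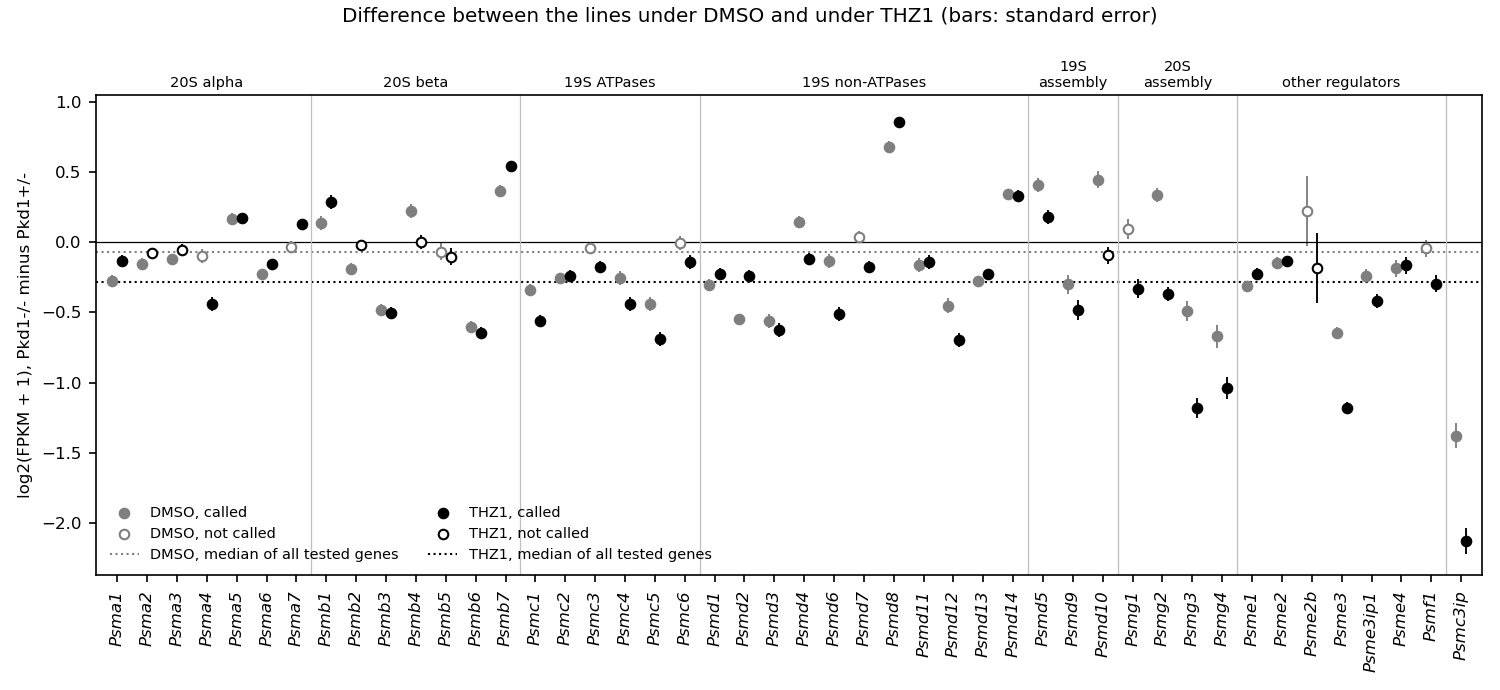
Log2 difference in FPKM + 1 between the null and the heterozygous line for each tested gene, under DMSO (grey) and under THZ1 (black), with bars for the standard error, filled points for called genes and dotted lines for the median of all 10731 genes (-0.07 and -0.28). Under THZ1 Psmd8 and Psmb7 stand highest, and Psmc3ip, Psmg3, Psme3 and Psmg4 stand lowest.

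In the heterozygous line THZ1 left the proteasome genes nearly where they were, with a small upward shift of the core. Of the 46 genes 12 were higher with the drug and 2 were lower, where 12.2% of all genes were called higher and 10.3% lower. Of the 14 core genes 8 were called higher, none lower, and all 14 had a positive log2 change, from 0.05 to 0.20 with a median of 0.14, against a median of 0.01 over all genes. The summed FPKM of the core rose from 1934 and 1998 to 2165 and 2154, a change of 9.84% in the mean, and the groups did not overlap. Of the 17 genes of the 19S particle 2 were called higher, Psmc5 and Psmd8, with a median of 0.09.

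The largest rises were all near 0.20. Psmb3 rose from 195 and 214 to 234 and 236 FPKM (0.20, SE 0.04, adjusted p = 0.00833), and Psmb1, a beta subunit without a catalytic site, from 126 and 128 to 141 and 149 FPKM (0.19, SE 0.05, adjusted p = 0.0117). Psmb2, also without a catalytic site, rose from 96.5 and 98.4 to 109 and 114 FPKM (0.19, SE 0.04, adjusted p = 0.0101). The base chaperone Psmd5 rose from 43.7 and 41.5 to 49.8 and 48.7 FPKM (0.20, SE 0.05, adjusted p = 0.0104). In these 4 genes both THZ1 libraries lay above both DMSO libraries. Psmg2, which pairs with Psmg1 in alpha-ring assembly, fell from 26.3 and 26.2 to 22.1 and 23.3 FPKM (-0.20, SE 0.05, adjusted p = 0.0201), and Psmc3ip fell from 31.8 and 34.0 to 26.2 and 26.5 FPKM (-0.31, SE 0.09, adjusted p = 0.0227). Psme2b, at 8.94 and 7.34 against 5.34 and 5.46 FPKM, and Psme3, at 106 and 107 against 103 and 102 FPKM, were not called (adjusted p = 0.153 and 0.381).

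None of these 14 calls held in all 18 alternatives. The counts of higher and lower genes were 3 and 0 without the first heterozygous DMSO library, 13 and 0 without the second, 2 and 0 without the first heterozygous THZ1 library and 2 and 0 without the second. They were 8 and 2, 6 and 2, and 4 and 2 with the libraries rescaled by the median of ratios, the upper quartile and the library totals. The adjusted p of Psmb3, Psmb1, Psmb2, Psmd5, Psmg2 and Psmc3ip reached at most 0.0656, 0.116, 0.09, 0.0845, 0.158 and 0.12 over the alternatives, with no change of sign.

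In the null line, on the deposited scale, most core genes rose with THZ1 and the 4 Psmg chaperones fell. Of the 46 genes 17 rose and 15 fell, where 24.6% of all genes were called higher and 51.1% lower. The median over the 46 genes was -0.03, against -0.17 over all genes. Of the 14 core genes 12 rose and 2 fell (Psma4 and Psmb4), with a median of 0.18, while the 4 Psmg chaperones all fell, with a median of -0.52. The 19S particle was mixed, with 3 of 17 genes higher, 5 lower and a median of -0.03. The summed FPKM of the core rose from 1886 and 1857 to 2128 and 2060, by 11.9% in the mean, and that of Psmg1 to Psmg4 fell from 89.2 and 80.8 to 54.1 and 55.4, a change of -35.6%. Markers of cell type changed in the same comparison: the summed mesenchymal list was higher with THZ1 and the summed epithelial list lower, without overlap. The epithelial genes Cldn4 (-1.22), Pax2 (-0.89) and Pax8 (-0.64) fell and Cdh16 (0.21) rose, while the mesenchymal Col1a1 (0.51) and the leukocyte marker Cd68 (0.89) rose on the log2 scale. Their part in the result was not tested.

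The direction of many of these calls depends on how the libraries are put on one scale. The deposited FPKM of the null THZ1 libraries have an upper quartile of 30.6 and 30.8, against 32.8 in both null DMSO libraries, and the median change of all genes moved from -0.17 to 0.04 with the median of ratios, to -0.09 with the upper quartile and to -0.27 with library totals. With those 3 scalings the counts of higher and lower proteasome genes were 32 and 7, 22 and 9, and 11 and 22. Set against the median of all genes, the core lay 0.36 above it as deposited and 0.37 to 0.39 above it with the 3 scalings, Psmg1 to Psmg4 lay 0.34 below it and 0.33 to 0.35 below it, and the 19S particle lay 0.15 above it and 0.15 to 0.18 above it. With the median of ratios 14 of the 46 changes turned from negative to positive, those of Psma4, Psmb4, 9 genes of the 19S particle and its chaperones (Psmc1, Psmc3, Psmc4, Psmc5, Psmc6, Psmd4, Psmd5, Psmd7 and Psmd12), Psme3ip1, Psme4 and Psmf1. A total of 11 rises and 6 falls held in all 18 alternatives: Psma1, Psma2, Psma3, Psma7, Psmb1, Psmb2, Psmb3, Psmb7, Psmd2, Psmd8 and Psme1 rose, and Psmd6, Psmd10, Psme3, Psmg2, Psmg3 and Psmc3ip fell.

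The beta subunits Psmb2 and Psmb1 rose most in the core. Psmb2 was at 82.6 and 88.4 FPKM with DMSO and 111 and 108 FPKM with THZ1 (0.36, SE 0.04, adjusted p = 8.52e-06), and Psmb1 at 143 and 137 against 183 and 172 FPKM (0.34, SE 0.05, adjusted p = 1.86e-05). The THZ1 libraries lay above the DMSO libraries in both. The trypsin-like subunit Psmb7 rose from 208 and 206 to 251 and 244 FPKM (0.25, SE 0.04, adjusted p = 0.000124), so that it became the most abundant core transcript by its mean. The chymotrypsin-like subunit Psmb5, at 110 and 116 against 128 and 121 FPKM, was near the threshold (0.14, SE 0.06, adjusted p = 0.0466) and kept its call in 8 of the 18 alternatives, in none of those that left out a null library (adjusted p from 0.0504 to 0.228). Psma7, an alpha subunit, rose from 193 and 186 to 234 and 230 FPKM (0.29, SE 0.04, adjusted p = 5.83e-05).

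Psma4 and Psmb4 went against the other core genes. Psma4, an alpha subunit, fell from 88.4 and 82.2 to 73.5 and 76.7 FPKM (-0.18, SE 0.05, adjusted p = 0.00389), and its call was lost with the median of ratios (0.06, adjusted p = 0.215), with the upper quartile and without null DMSO library 1 (-0.13, adjusted p = 0.053). As a share of the other alpha genes summed, Psma4 was 12.0% and 11.4% with DMSO and 8.69% and 9.25% with THZ1 in the null line, and 12.3% and 11.1% against 12.2% and 12.2% in the heterozygous line. Psmb4, a beta subunit, fell from 262 and 255 to 248 and 227 FPKM (-0.13, SE 0.05, adjusted p = 0.0228), a call lost in 6 of the 18 alternatives, among them the median of ratios (0.12, adjusted p = 0.0594) and the fits without null DMSO library 1 (-0.11, adjusted p = 0.12) or null THZ1 library 2 (-0.06, adjusted p = 0.249). Its share of the other beta genes summed was 32.7% and 31.9% with DMSO and 25.7% and 24.5% with THZ1 in the null line, and at least 24.6% in both DMSO libraries against 24.5% and 23.7% in the heterozygous line. In the null line both shares were lower with the drug without overlap, and in the heterozygous line that of Psmb4 was also lower without overlap.

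In the 19S particle Psmd2 and Psmd8 rose and Psmd6 fell. Psmd2 was at 162 and 159 FPKM with DMSO and 214 and 207 FPKM with THZ1 (0.39, SE 0.04, adjusted p = 1.18e-06), the largest rise among the 46 genes. Psmd8 rose from 194 and 190 to 243 and 233 FPKM (0.31, SE 0.04, adjusted p = 2.67e-05). Psmd6, a lid subunit, fell from 63.8 and 58.8 to 44.7 and 48.1 FPKM (-0.39, SE 0.05, adjusted p = 1.65e-05). The groups did not overlap in these 3 genes. Of the 6 ATPases only Psmc1 was called, at 114 and 117 against 105 and 107 FPKM (-0.13, SE 0.04, adjusted p = 0.00979), and that call was higher in place of lower with the median of ratios (0.12) and was lost with the upper quartile, without null DMSO library 2 (adjusted p = 0.0663) and without null THZ1 library 1 (adjusted p = 0.0566).

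Among the assembly chaperones Psmg2 and Psmg3 fell most. Psmg2 was at 34.9 and 31.9 FPKM with DMSO and 17.5 and 17.2 FPKM with THZ1 (-0.91, SE 0.05, adjusted p = 1.47e-08). Psmg3 (chr5:139823613-139826894) was at 19.3 and 17.1 against 10.1 and 11.1 FPKM (-0.72, SE 0.07, adjusted p = 1.23e-06). The partners Psmg1 and Psmg4 fell less, Psmg1 from 22.5 and 20.4 to 17.4 and 17.3 FPKM (-0.29, SE 0.07, adjusted p = 0.00252) and Psmg4 from 12.6 and 11.4 to 9.11 and 9.86 FPKM (-0.31, SE 0.08, adjusted p = 0.00501). The calls of Psmg1 and Psmg4 were lost with the median of ratios and when the null DMSO library 1 and null THZ1 library 2 were left out together, and that of Psmg4 also without null DMSO library 1 alone. Of the base chaperones Psmd10 fell from 30.2 and 31.0 to 19.99 and 21.2 FPKM (-0.55, SE 0.06, adjusted p = 1.69e-06), while Psmd5 and Psmd9 were not called (adjusted p = 0.623 and 0.165).

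The alternative activators also parted. Psme3 fell from 68.0 and 67.0 to 43.8 and 45.8 FPKM (-0.58, SE 0.04, adjusted p = 4.61e-08), whereas Psme1 rose from 61.0 and 64.1 to 72.4 and 73.1 FPKM (0.22, SE 0.04, adjusted p = 0.000704) and its partner Psme2 from 69.4 and 69.4 to 80.8 and 75.2 FPKM (0.17, SE 0.04, adjusted p = 0.0044). The call of Psme2 was lost with library totals and without null THZ1 library 1. Psme2b was at 8.89 and 10.5 FPKM with DMSO and 2.80 and 7.35 FPKM with THZ1 (-0.92, SE 0.25, adjusted p = 0.00428), with null THZ1 libraries far apart. Its change was -0.35 without the first of them and -1.49 without the second, and its call was lost with robust empirical Bayes and with no filter. Psme4, an activator known from sperm development, and Psmf1 were not called (adjusted p = 0.692 and 0.263). Psmc3ip fell from 11.2 and 12.8 to 5.88 and 4.71 FPKM (-1.05, SE 0.09, adjusted p = 1.92e-07).

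**Figure D3:**
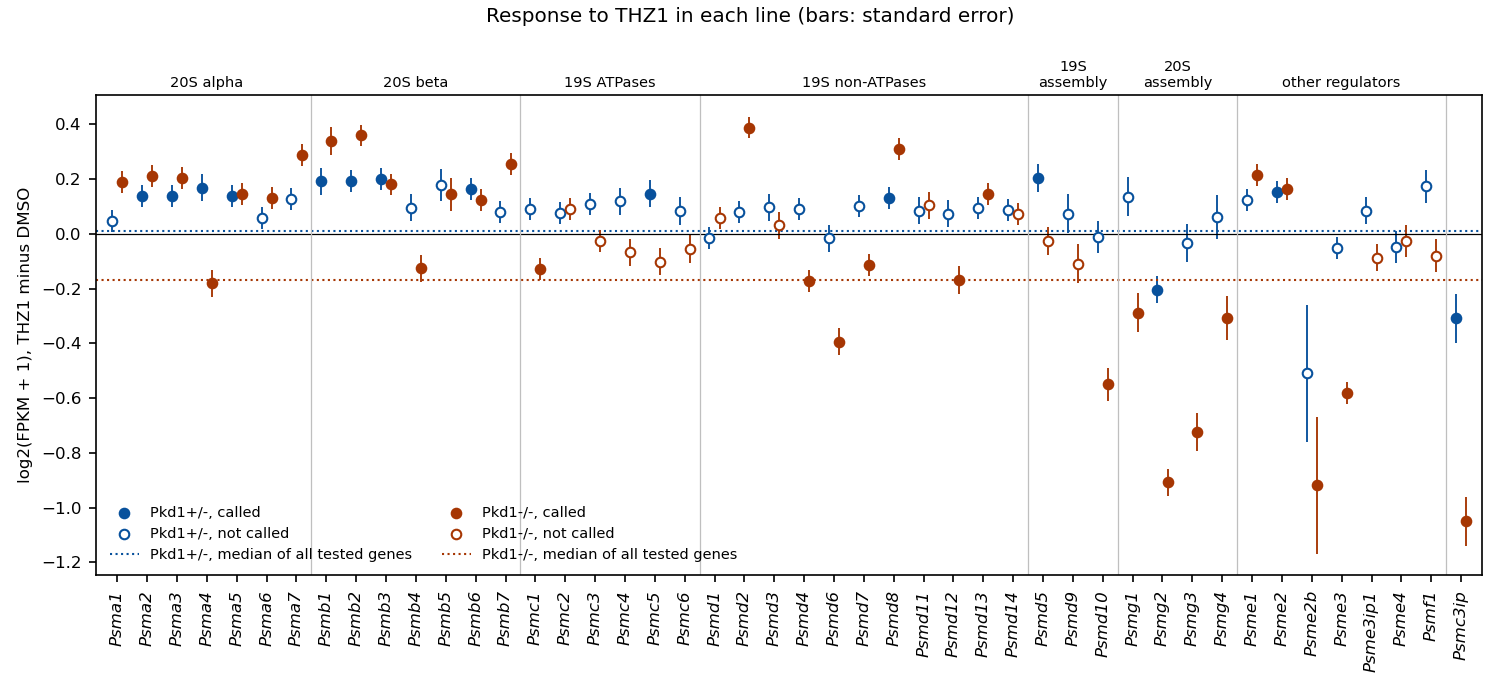
Log2 change in FPKM + 1 with THZ1 in the heterozygous (blue) and the null line (brown) for each tested gene, with bars for the standard error, filled points for called genes and dotted lines for the median of all 10731 genes (0.01 and -0.17). In the null line 12 of 14 core genes are called higher, the 4 Psmg genes are called lower, and the genes of the 19S particle lie on both sides of 0 as deposited.

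The response to THZ1 differed between the lines for 24 of the 46 genes by the interaction term of the fit. In the null line 19 responded more negatively and 5 more positively than in the heterozygous line, where 45.1% and 15.1% of all genes were called. The median difference of responses was -0.10 over the 46 genes and -0.19 over all genes. All 4 Psmg chaperones were among the 19, with a median of -0.56. The call of Psmg4 was kept in 9 of 17 alternatives (adjusted p up to 0.306) and that of Psmg1 in 16 of 17 (adjusted p up to 0.118), and both were lost with the median of ratios. The call of Psmg4 was also lost without heterozygous DMSO library 1 (-0.23, adjusted p = 0.0783), heterozygous THZ1 library 2 (-0.32, adjusted p = 0.0657), null DMSO library 1 (-0.30, adjusted p = 0.0755) or null THZ1 library 1 (-0.32, adjusted p = 0.0657). Of the 14 core genes 2 responded more negatively (Psma4 and Psmb4), 3 more positively (Psma7, Psmb2 and Psmb7) and 9 were not called. These core counts moved with the scaling: 11 responded more positively and 0 more negatively with the median of ratios, 8 and 1 with the upper quartile, and 1 and 2 with library totals.

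The largest of these differences were in genes that fell in the null line. They were -0.74 for Psmc3ip (SE 0.12, adjusted p = 0.000204), -0.70 for Psmg2 (SE 0.08, adjusted p = 9.98e-06), -0.69 for Psmg3 (SE 0.10, adjusted p = 0.000101) and -0.54 for Psmd10 (SE 0.08, adjusted p = 0.000107). Psmd2 had the largest positive difference, 0.31 (SE 0.05, adjusted p = 0.00039), followed by Psmd8 with 0.18 (SE 0.06, adjusted p = 0.0242), Psmb7 with 0.18 (SE 0.06, adjusted p = 0.0231) and Psmb2 with 0.17 (SE 0.06, adjusted p = 0.0352). The calls of Psmc3ip, Psmg2, Psmg3, Psmd10, Psme3 and Psmd2 held in all 17 alternatives of this comparison. Those of Psmd8, Psmb7 and Psmb2 were each lost in some fits that left out 1 library, with adjusted p up to 0.131, 0.122 and 0.145. With the median of ratios, the upper quartile and library totals the counts of more positive and more negative responses were 21 and 5, 13 and 9, and 3 and 21. The number of more positive responses also fell to 1 without the second heterozygous DMSO library or the first null THZ1 library, to 2 without the second null DMSO library and to 3 without either heterozygous THZ1 library.

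With THZ1 present, most proteasome transcripts were lower in the null than in the heterozygous line on the deposited scale, a majority that turned with the median of ratios. Of the 46 genes 7 were higher and 32 lower, where 25.1% of all genes were called higher and 58.1% lower, and the median was -0.20 against -0.28 over all genes. The counts were 22 and 15 with the median of ratios, 11 and 16 with the upper quartile and 7 and 32 with library totals. Psmg3, at 24.3 and 26.2 FPKM in the heterozygous and 10.1 and 11.1 FPKM in the null THZ1 libraries, differed by -1.18 (SE 0.07, adjusted p = 6.38e-09), and Psmg4, at 19.8 and 21.2 against 9.11 and 9.86 FPKM, by -1.04 (SE 0.08, adjusted p = 9.35e-08). Psme3, at 103 and 102 against 43.8 and 45.8 FPKM, differed by -1.18 (SE 0.04, adjusted p = 4.03e-11). In these 3 genes the null libraries lay far below the heterozygous ones. Psmc3ip, at 26.2 and 26.5 against 5.88 and 4.71 FPKM, had the largest difference, -2.13 (SE 0.09, adjusted p = 1.39e-10).

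The genes higher in the null line with THZ1 were led by Psmd8 and Psmb7. Psmd8 also led with DMSO, but there Psmd10 and Psmd5 stood above Psmb7. Psmd8 was at 135 and 127 against 243 and 233 FPKM (0.86, SE 0.04, adjusted p = 1.05e-09), and Psmb7 at 174 and 165 against 251 and 244 FPKM (0.54, SE 0.04, adjusted p = 6.76e-08). Psmd14, the deubiquitinase, was at 66.0 and 65.7 against 83.7 and 82.3 FPKM (0.33, SE 0.04, adjusted p = 7.35e-06), and Psmb1 at 141 and 149 against 183 and 172 FPKM (0.29, SE 0.05, adjusted p = 5.89e-05). The null libraries were above the heterozygous ones in all 4 genes. This comparison shares its libraries with the responses above, so it is no separate evidence for them.

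Ratios of FPKM within a library do not depend on the scale between libraries. Psmg1 to Psmg4 together were 4.54% and 4.80% of the core sum in the heterozygous DMSO libraries, 4.15% and 4.24% with THZ1, 4.73% and 4.35% in the null DMSO libraries and 2.54% and 2.69% with THZ1. The lines overlapped with DMSO, and the null THZ1 libraries stood below all the others. Pomp went the other way: it was 8.55% and 8.35%, then 8.85% and 8.66% of the core sum in the heterozygous line, and 8.08% and 7.85%, then 9.98% and 9.80% in the null line, highest in the null THZ1 libraries. These ratios are given as values with no test.

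The regulators lost ground to the core in the null line as well. The 19S sum was 94.7% and 93.8% of the core sum in the heterozygous DMSO libraries, 92.0% and 90.7% with THZ1, 89.5% and 89.0% in the null DMSO libraries and 81.2% and 83.4% with THZ1, and no groups overlapped. Most of this was in the ATPases, at 37.2% and 37.4% in the heterozygous DMSO and 27.9% and 29.7% in the null THZ1 libraries, while the non-ATPase subunits went from 57.5% and 56.4% to 53.3% and 53.7%. Psme3 fell from 5.47% and 5.33% of the core sum in the heterozygous DMSO libraries to 4.75% and 4.74% with THZ1, 3.61% and 3.61% in the null DMSO libraries and 2.06% and 2.22% with THZ1. The base chaperones Psmd5, Psmd9 and Psmd10 together were 4.49% and 4.40% of the 19S sum in the heterozygous and 6.07% and 6.09% in the null DMSO libraries, and 4.62% and 4.48% against 5.09% and 5.28% with THZ1. Psme1 and Psme2 held their place with the drug: their shares of the core sum overlapped between DMSO and THZ1 in both lines.

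The interferon-induced catalytic subunits, which replace Psmb6, Psmb7 and Psmb5 in the immunoproteasome, are outside the set and were compared with their constitutive counterparts. Psmb8 was at 54.2% and 47.9% of Psmb5 in the heterozygous DMSO libraries, 52.2% and 48.9% with THZ1, 34.3% and 33.5% in the null DMSO libraries and 35.4% and 39.5% with THZ1. Psmb10 was at 11.2% and 9.86% of Psmb7, 8.82% and 10.3%, 7.58% and 7.50%, and 5.48% and 5.59% in the same order. Both ratios were lower in the null line, without overlap, but Psmb7, the divisor for Psmb10, was itself higher there. Psmb9 was at 15.2% and 16.1% of Psmb6 in the heterozygous DMSO libraries, 15.5% and 14.1% with THZ1, 15.0% and 14.1% in the null DMSO libraries and 10.6% and 11.7% with THZ1, and the null THZ1 libraries stood below the other 6. In the fit Psmb8 and Psmb9 were lower in the null line under DMSO, by -0.64 and -0.68 (adjusted p = 5.78e-08 and 9.13e-07), and Psmb10 was not called (-0.10, adjusted p = 0.154). With THZ1 in the null line Psmb8 rose (0.28, adjusted p = 9.43e-05) and Psmb9 and Psmb10 fell (-0.25 and -0.18, adjusted p = 0.00395 and 0.0217). The call of Psmb9 was lost with the median of ratios and without null DMSO library 1, and that of Psmb10 turned to 0.06 with the median of ratios (adjusted p = 0.43) and was lost without any 1 of the 4 null libraries.

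**Figure D4:**
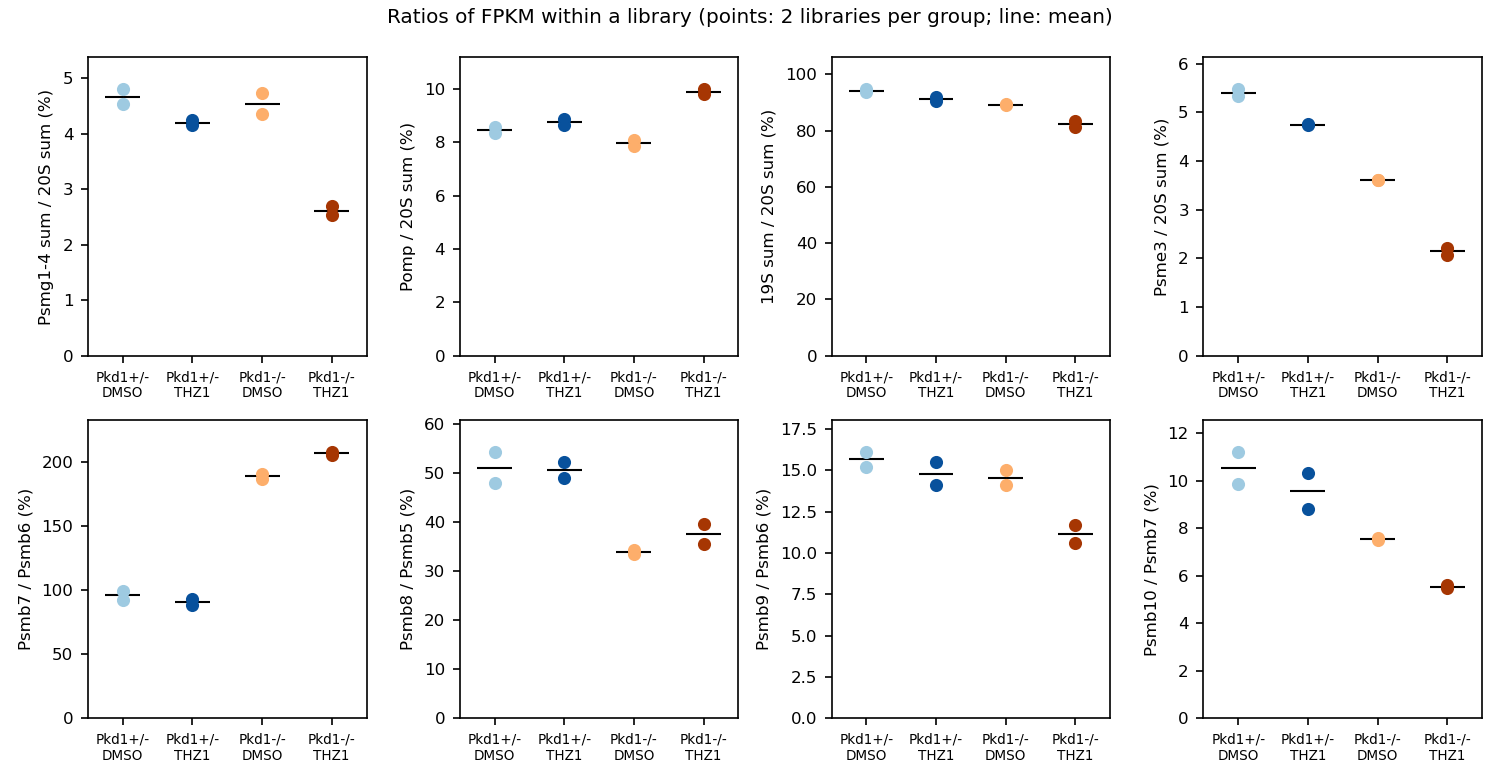
Ratios of FPKM within each library, in percent on axes that start at 0, with 2 points per group and a line at their mean. Psmg1 to Psmg4 fall to 2.54% and 2.69% of the core sum in the null line with THZ1 while Pomp rises to 9.98% and 9.80%, and Psmb7 stands at 187% or more of Psmb6 in all 4 null libraries.

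A list of 35 further genes of the pathway was examined beside the set, of which 34 were tested. Under DMSO 8 were higher and 18 lower in the null line, THZ1 left 5 higher and 1 lower in the heterozygous line and 12 higher and 12 lower in the null line, and the response differed for 10 upward and 9 downward. With THZ1, 10 were higher and 18 lower in the null line than in the heterozygous line. These counts are on the deposited scale and are to be read against the shares of all genes given above.

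Pomp and Sem1, which belong to the core's assembly and to the lid, rose with THZ1 in both lines and more in the null line. Pomp was at 165 and 167 FPKM, then 192 and 187 FPKM with THZ1 in the heterozygous line (0.19, SE 0.04, adjusted p = 0.00853), and at 152 and 146, then 212 and 202 FPKM in the null line (0.47, SE 0.04, adjusted p = 4.04e-07). Sem1 was at 173 and 170, then 193 and 193 FPKM (0.17, SE 0.04, adjusted p = 0.00853), and at 158 and 161, then 245 and 237 FPKM (0.60, SE 0.04, adjusted p = 2.51e-08). The rises in the heterozygous line were lost without the first heterozygous THZ1 library, and that of Sem1 also without the second. The difference of the responses was 0.29 for Pomp and 0.42 for Sem1 (adjusted p = 0.00116 and 3.22e-05). Adrm1, the ubiquitin receptor of the 19S base, was called with THZ1 in neither line (adjusted p = 0.0643 and 0.524).

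Of the deubiquitinases that dock on the 19S particle, Uchl5 was lower and Usp14 higher in the null line. Uchl5 was at 34.9 and 33.1 FPKM in the heterozygous and 17.3 and 16.6 FPKM in the null DMSO libraries (-0.96, SE 0.05, adjusted p = 3.86e-09), and at 37.6 and 37.5 against 15.7 and 15.1 FPKM with THZ1 (-1.23, SE 0.05, adjusted p = 1.73e-10). Usp14 was at 28.4 and 27.6 against 45.0 and 44.3 FPKM with DMSO (0.66, SE 0.04, adjusted p = 3.42e-08). Neither gene's lines overlapped. The F-box protein Fbxo7, a partner of Psmf1, rose with THZ1 in the heterozygous line from 17.3 and 16.2 to 20.9 and 18.7 FPKM (0.23, SE 0.07, adjusted p = 0.0264). That call was lost without either DMSO library or the first THZ1 library of the line (adjusted p = 0.0505, 0.117 and 0.247).

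The genes that control subunit transcription did not change as one. Nfe2l1 was at 84.6 and 86.2, then 85.5 and 86.3 FPKM in the heterozygous line and at 94.3 and 95.6, then 88.4 and 90.6 FPKM in the null line, and it was called with THZ1 in neither (adjusted p = 0.895 and 0.0638). Between the lines Nfe2l1 was higher in the null line with DMSO (0.15, SE 0.04, adjusted p = 0.00348) and was not called with THZ1 (adjusted p = 0.169). Its relative Nfe2l2 was lower in the null line with DMSO (-0.31, SE 0.04, adjusted p = 1.18e-05). With THZ1 Nfe2l2 rose in the null line (0.31, SE 0.04, adjusted p = 1.12e-05) and was not called in the heterozygous line (adjusted p = 0.118). Ngly1, the glycanase that processes the Nfe2l1 protein, fell in the null line from 4.23 and 3.62 to 1.48 and 1.28 FPKM (-1.05, SE 0.09, adjusted p = 4.03e-07), and Ddi2, the protease that cleaves it, rose from 6.78 and 8.29 to 9.66 and 10.1 FPKM (0.36, SE 0.09, adjusted p = 0.00353), a call lost without null DMSO library 1 (0.23, adjusted p = 0.0603). In the heterozygous line neither was called (adjusted p = 0.0977 and 0.0908). Among the small Maf proteins, dimer partners of Nfe2l1, Mafk rose in the null line from 13.7 and 13.1 to 30.8 and 28.6 FPKM (1.09, SE 0.06, adjusted p = 8.51e-09) and Maff from 15.4 and 15.9 to 23.3 and 22.5 FPKM (0.52, SE 0.11, adjusted p = 0.000592), while in the heterozygous line Mafk was at 12.6 and 12.0, then 12.3 and 13.3 FPKM (adjusted p = 0.587) and Maff at 8.21 and 10.3, then 7.41 and 9.63 FPKM (adjusted p = 0.492). Between the lines Maff was higher in the null line by 0.71 with DMSO and 1.33 with THZ1 (adjusted p = 5.29e-05 and 7.04e-08), and Mafk by 1.16 with THZ1 (adjusted p = 1.78e-09). Mafg, also a small Maf protein, was called with THZ1 in neither the heterozygous nor the null line (adjusted p = 0.053 and 0.67). With DMSO Mafg was lower in the null line (-0.23, SE 0.06, adjusted p = 0.00518). The difference of the responses was 1.04 for Mafk and -0.82 for Ngly1 (adjusted p = 1.33e-06 and 0.000171).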

How the data were processed

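Poly(A) RNA was measured in 8 libraries, 4 groups of 2, which were assigned from the labels. The deposited values are FPKM for 18631 genes by Entrez ID, rounded to 2 decimals. Per the submitters' processing notes Bowtie2, DESeq2 and the build mm10 were used. Versions, the program behind the FPKM, the annotation and the strand setting were not given in the sources used here. Symbols, coordinates and promoters came from RefSeq tables of GRCm38.p6, which named 18593 IDs.

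Genes with a mean of at least 1 FPKM (10731) entered limma-trend (limma 3.58.1, R 4.3.3) on log2(FPKM + 1), with 1 mean per group, all 8 libraries and 4 residual df, and Benjamini-Hochberg adjustment over all of them. Tables and figures were made with Python 3.11.15. On simulated data for THZ1 in the null line (10731 genes, 200 changed) the fit recovered 26.9%, 73.1% and 98.5% of log2 changes of 0.25, 0.5 and 1, and 4.48%, 43.3% and 95.5% for the interaction. A log2 difference of 0.25 thus often went uncalled when 200 genes changed. In the data 2645 genes were called higher and 5479 lower for THZ1 in the null line. With so many changes the adjusted threshold is looser, so these recoveries do not carry over to the calls above. Depth was estimated from the steps of low values, since the deposited FPKM hold no counts, and the intervals it gives cover counting error only.

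In each comparison the 4 largest and the 4 smallest log2 differences among the tested members are given with library values and statistics, with the 3 largest of the pathway list, of which 1 gene is not reported here, and further members are named where a class is described. The members and lists were chosen with earlier results of these data known. The alternatives were 3 scalings, a pseudocount of 0.1, no filter or one at 5 FPKM, a replicate block, robust empirical Bayes, only the groups compared, and each library left out. One was chosen after seeing the data: null DMSO library 1 and null THZ1 library 2, which list 3378 and 3129 genes at 0.01 to 0.2 FPKM against 2230 to 2586 in the others, were left out together.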

Additional observations from a re-analysis of the deposited data

Results flagged for a closer look

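For 24 of the 46 tested genes the interaction term of limma-trend found that the response to THZ1 differed between the lines at an adjusted p below 0.05. Of these, 19 responded more negatively in the null line and 5 more positively, where 45.1% and 15.1% of all genes were called. They are listed as the log2 response of the null line minus that of the heterozygous line. Among assembly chaperones the differences were -0.70 for Psmg2, -0.69 for Psmg3, -0.42 for Psmg1 and -0.37 for Psmg4, which build the core, and -0.54 for Psmd10 and -0.23 for Psmd5, which build the 19S base. Among core genes they were -0.35 for Psma4 and -0.22 for Psmb4, and 0.16 for Psma7, 0.17 for Psmb2 and 0.18 for Psmb7. Among the 19S ATPases they were -0.25 for Psmc5, -0.22 for Psmc1 and -0.19 for Psmc4. Among the other 19S genes they were -0.38 for Psmd6, -0.26 for Psmd4, -0.24 for Psmd12, -0.21 for Psmd7, 0.18 for Psmd8 and 0.31 for Psmd2. Among the other regulators they were -0.53 for the activator Psme3, -0.17 for its partner Psme3ip1 and -0.25 for Psmf1. Psmc3ip, no proteasome gene, differed by -0.74.

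Psmb4, Psmc1, Psmc4, Psmd5, Psmd7 and Psme3ip1 turned positive with the median of ratios. Psmc3ip, Psmd10, Psme3, Psmg2, Psmg3 and Psmd2 kept their calls in all 17 alternatives, Psmg1 in 16 and Psmg4 in 9.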

How the results depend on the processing

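The differences between lines under DMSO were within 1.5 times of the reported counts in every alternative. The other counts moved with the scaling, the filter or a library left out. With the median of ratios there were 32 higher and 7 lower genes for THZ1 in the null line, 21 and 5 for the difference of responses, and 22 and 15 for the null against the heterozygous line with THZ1. With the upper quartile there were 6 higher for THZ1 in the heterozygous line, 9 lower in the null line, 13 and 9 for the difference of responses, and 11 and 16 between the lines with THZ1. With library totals there were 4 higher in the heterozygous and 11 in the null line, and 3 more positive responses. Without a filter there were 4 higher and 0 lower in the heterozygous line and 3 more positive responses.

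Leaving out 1 library gave 2 to 13 higher and 0 to 3 lower genes for THZ1 in the heterozygous line, 13 to 18 and 11 to 16 in the null line, 1 to 6 and 15 to 20 for the difference of responses, 8 to 10 and 24 to 28 between lines with DMSO, and 6 to 7 and 27 to 33 with THZ1. Of the proteasome genes named by size, 669 alternative values kept direction and call, 39 lost the call, 4 gained it and none turned sign. The cause of these moves was not tested.

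The labels number the libraries 1 and 2 in each group, but same-numbered libraries did not deviate together, with correlations of 0.14, 0.05, 0.07, -0.09, -0.01 and 0.03. A replicate block gave 13 and 2 called genes in the heterozygous line and 18 and 15 in the null line with THZ1, and left the other counts as reported (10 and 27, 5 and 19, 7 and 32). Depth limits the low genes most: at 10 FPKM and 1000 bases counting error alone is 0.11 on the log2 scale.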
